A study of Homo sapiens with 4 samples.

Results

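The genes described here code for SR proteins, hnRNPs, core snRNP proteins and U2AF proteins of the splicing machinery. They were all protein-coding genes of the GENCODE annotation whose names start with SRSF, HNRNP, SF3A, SF3B, SNRP or U2AF. The rule itself uses names only, although it was set with earlier results of these data known. The rule gave 63 of 20033 protein-coding genes on chromosomes 1 to 22, X and Y. They were grouped by role into 12 SR proteins (SRSF), 27 hnRNPs (HNRNP), 9 subunits of the SF3 complexes (SF3A, SF3B), 12 Sm and other snRNP proteins (SNRP) and 3 U2AF proteins.

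The study profiled RNA polymerase II (Pol II) by chromatin immunoprecipitation and sequencing (ChIP-seq) in SK-OV-3, a human ovarian cancer cell line. The aim was to see how loss of RRN3, known as an initiation factor of RNA polymerase I, affects transcription by Pol II. RRN3 was silenced with a lentiviral short hairpin RNA (shRRN3), which the methods describe as stable, and control cells carried a hairpin directed at bacterial LacZ (shLacZ). The labels do not say which of the RRN3 hairpins was used. There was 1 Pol II library for each hairpin, so no difference below could be compared with replicate error, and the input library of each hairpin was not used here.

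SR proteins are RNA-binding proteins that, as a rule, promote the use of nearby splice sites. The hnRNPs coat nascent transcripts and often oppose SR proteins at splice sites. Sm proteins form the ring around spliceosomal small nuclear RNAs, SF3A and SF3B are parts of the U2 particle that recognises the branch site, and U2AF reads the 3′ splice site. Many SR protein and hnRNP genes regulate their own messages by alternative splicing of highly conserved segments.

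The values are peaks of Pol II, listed for each library with a position and a score that ranks peaks within a list. Control cells gave 4014 peaks and silenced cells 14363, a ratio of 3.58. Their widths had medians of 306 bp and 432 bp, in that order. The depth of the libraries is unknown from these lists, so a longer list, higher scores and wider peaks in shRRN3 cannot be told apart from a difference in depth or enrichment. For that reason the main counts are given beside the share over all protein-coding genes, and intervals (95%, exact Clopper-Pearson for shares) cover counting error only. As a check of the labelled line, the start of 1 of 6 SK-OV-3 marker genes carried a peak in shLacZ (PAX8) and 4 of 6 in shRRN3 (KRT8, KRT18, VIM and PAX8), with none at ERBB2 or KRT19. KRT8 and KRT18, both on chromosome 12, had the same score of 120.86 in shRRN3, so 1 peak may be counted for both. None of 5 markers of other cell types had a peak at its start in either list.

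The promoters of 57 of the 63 genes were found in RefSeq promoter sequences of GRCh38.p14. HNRNPA1, HNRNPA1L3, HNRNPCL3, SF3B3, SNRPD1 and SRSF2 were not among them. Below are 180 bases each, 150 before the RefSeq start and 30 from it, for 8 genes with a Pol II peak at the start in both lists. Capitals mark words searched on both strands. TATAAA is the TATA box. CCAAT is the CCAAT box and reads ATTGG on the other strand. GGGCGG is the GC box and reads CCGCCC on the other strand. CCGGAAGT (ACTTCCGG) is a core bound by ETS factors, and GCATGCGC (GCGCATGC) one bound by NRF1. TCTCGCGA (TCGCGAGA) is a palindrome-like word, and its copies in both directions overlap in the windows printed. SRSF3 and HNRNPAB are shown for their TATA and CCAAT boxes, HNRNPA2B1 and SRSF7 as genes with high scores at the start and no TATA box, HNRNPK and SRSF10 for the TCTCGCGA word, and SF3B4 and SNRPB for the ETS core.

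SRSF3 promoter, chr6:36594212-36594391, plus strand: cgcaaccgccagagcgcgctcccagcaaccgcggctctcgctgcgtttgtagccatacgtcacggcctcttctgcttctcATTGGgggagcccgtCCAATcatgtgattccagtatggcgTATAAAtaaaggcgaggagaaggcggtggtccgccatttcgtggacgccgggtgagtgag
SRSF7 promoter, chr2:38751465-38751644, minus strand: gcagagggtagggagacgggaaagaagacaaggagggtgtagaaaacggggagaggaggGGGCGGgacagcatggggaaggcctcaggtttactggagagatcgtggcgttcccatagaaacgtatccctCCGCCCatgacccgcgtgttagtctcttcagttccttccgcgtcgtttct
SRSF10 promoter, chr1:23980298-23980477, minus strand: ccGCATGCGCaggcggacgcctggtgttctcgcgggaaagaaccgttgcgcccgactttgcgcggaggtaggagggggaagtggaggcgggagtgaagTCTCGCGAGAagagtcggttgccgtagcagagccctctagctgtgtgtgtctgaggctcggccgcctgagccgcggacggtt
HNRNPAB promoter, chr5:178204383-178204562, plus strand: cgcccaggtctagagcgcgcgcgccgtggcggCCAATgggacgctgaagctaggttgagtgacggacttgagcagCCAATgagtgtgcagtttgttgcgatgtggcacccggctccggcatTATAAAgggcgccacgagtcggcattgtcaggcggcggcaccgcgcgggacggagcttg
HNRNPA2B1 promoter, chr7:26200717-26200896, minus strand: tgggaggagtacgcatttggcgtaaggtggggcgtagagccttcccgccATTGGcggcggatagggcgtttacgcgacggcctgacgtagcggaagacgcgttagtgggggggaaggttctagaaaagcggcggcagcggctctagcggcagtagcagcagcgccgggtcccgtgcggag
HNRNPK promoter, chr9:83980586-83980765, minus strand: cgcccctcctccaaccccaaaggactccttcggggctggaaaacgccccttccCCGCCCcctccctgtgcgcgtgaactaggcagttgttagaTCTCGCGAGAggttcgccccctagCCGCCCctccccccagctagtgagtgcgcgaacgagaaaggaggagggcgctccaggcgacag
SF3B4 promoter, chr1:149927774-149927953, minus strand: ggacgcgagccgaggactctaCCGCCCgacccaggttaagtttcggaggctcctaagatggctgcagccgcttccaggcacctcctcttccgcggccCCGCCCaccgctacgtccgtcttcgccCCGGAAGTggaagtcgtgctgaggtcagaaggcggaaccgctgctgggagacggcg
SNRPB promoter, chr20:2470760-2470939, minus strand: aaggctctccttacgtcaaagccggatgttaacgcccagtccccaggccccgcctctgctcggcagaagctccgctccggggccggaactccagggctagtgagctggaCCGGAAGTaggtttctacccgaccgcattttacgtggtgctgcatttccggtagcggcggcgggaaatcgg

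The ETS core was the word that set these promoters most apart from the rest by its share. CCGGAAGT lay in the 300-base promoter of 13 of the 57 genes (22.8%), against 6.32% of 15345 promoters. It lay in 10 of 22 promoters of SF3, Sm and U2AF genes (45.5%), which were SF3A1, SF3A2, SF3A3, SF3B2, SF3B4, SF3B6, SNRPA1, SNRPB, SNRPE and U2AF2, and in 3 of 35 promoters of SR protein and hnRNP genes (8.57%). The CCAAT box had the opposite order, in 18 of 35 (51.4%) and 5 of 22 (22.7%), against 36.6% of all promoters. HNRNPUL2 and the annotated readthrough model HNRNPUL2-BSCL2 were both counted, although their promoters overlap and share a CCAAT box and a GC box. TATAAA lay in 6 of 57 promoters (10.5%, against 9.63%), GGGCGG in 36 (63.2%, against 59.2%) and TCTCGCGA in 2 (3.51%, against 1.80%). GCATGCGC lay in 4 (7.02%, against 4.25%), and AAGATGGCG, a core bound by YY1, in 2 (3.51%, against 2.80%). The median share of G and C bases was 62.0% in the 57 promoters and 63.0% in all promoters. These matches describe letters and say nothing of whether a factor was bound.

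At the start of the gene, Pol II peaks were common in the splicing genes in both lists. A gene counted as having a TSS peak when a peak midpoint lay within 1 kb of its transcription start site (TSS), the first base of its annotated span. In shLacZ 23 of the 63 genes had one (36.5%, interval 24.7% to 49.6%), against 7.56% of all protein-coding genes. In shRRN3 40 had one (63.5%, interval 50.4% to 75.3%), against 23.7%. All 23 genes with a TSS peak in shLacZ also had one in shRRN3, where 6.41% of all genes had a peak in both lists. No gene of the list had a TSS peak in shLacZ alone (0 of 63, interval up to 5.69%), against 1.15% of all genes. Over all genes, 84.8% of the 1515 with a TSS peak in shLacZ kept one in shRRN3. A TSS peak in shRRN3 alone was found for 17 genes (27.0%), against 17.3%.

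The groups had different counts in the 2 full lists. Of the 39 SR protein and hnRNP genes, 19 had a TSS peak in shLacZ (48.7%, interval 32.4% to 65.2%) and 24 in shRRN3 (61.5%, interval 44.6% to 76.6%). Of the 24 SF3, Sm and U2AF genes, 4 had one in shLacZ (16.7%, interval 4.74% to 37.4%) and 16 in shRRN3 (66.7%, interval 44.7% to 84.4%). A TSS peak in shRRN3 alone was thus found for 5 of the 39 (12.8%) and for 12 of the 24 (interval 29.1% to 70.9%), beside 17.3% of all genes. A list of 75 other splicing machinery genes held LSM proteins, helicases and kinases, among others. It stood closer to the SF3, Sm and U2AF genes, with 15 (20.0%) in shLacZ and 46 (61.3%) in shRRN3. When shRRN3 peaks were kept from the top score down until both lists held 3920, the counts in shRRN3 were 19 of the 39 (48.7%) and 8 of the 24 (33.3%, interval 15.6% to 55.3%), and those in shRRN3 alone 3 of the 39 (7.69%) and 5 of the 24 (20.8%), beside 9.74% and 5.5% of all genes. Whether these groups differ beyond the genes listed was not tested.

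**Figure D1:**
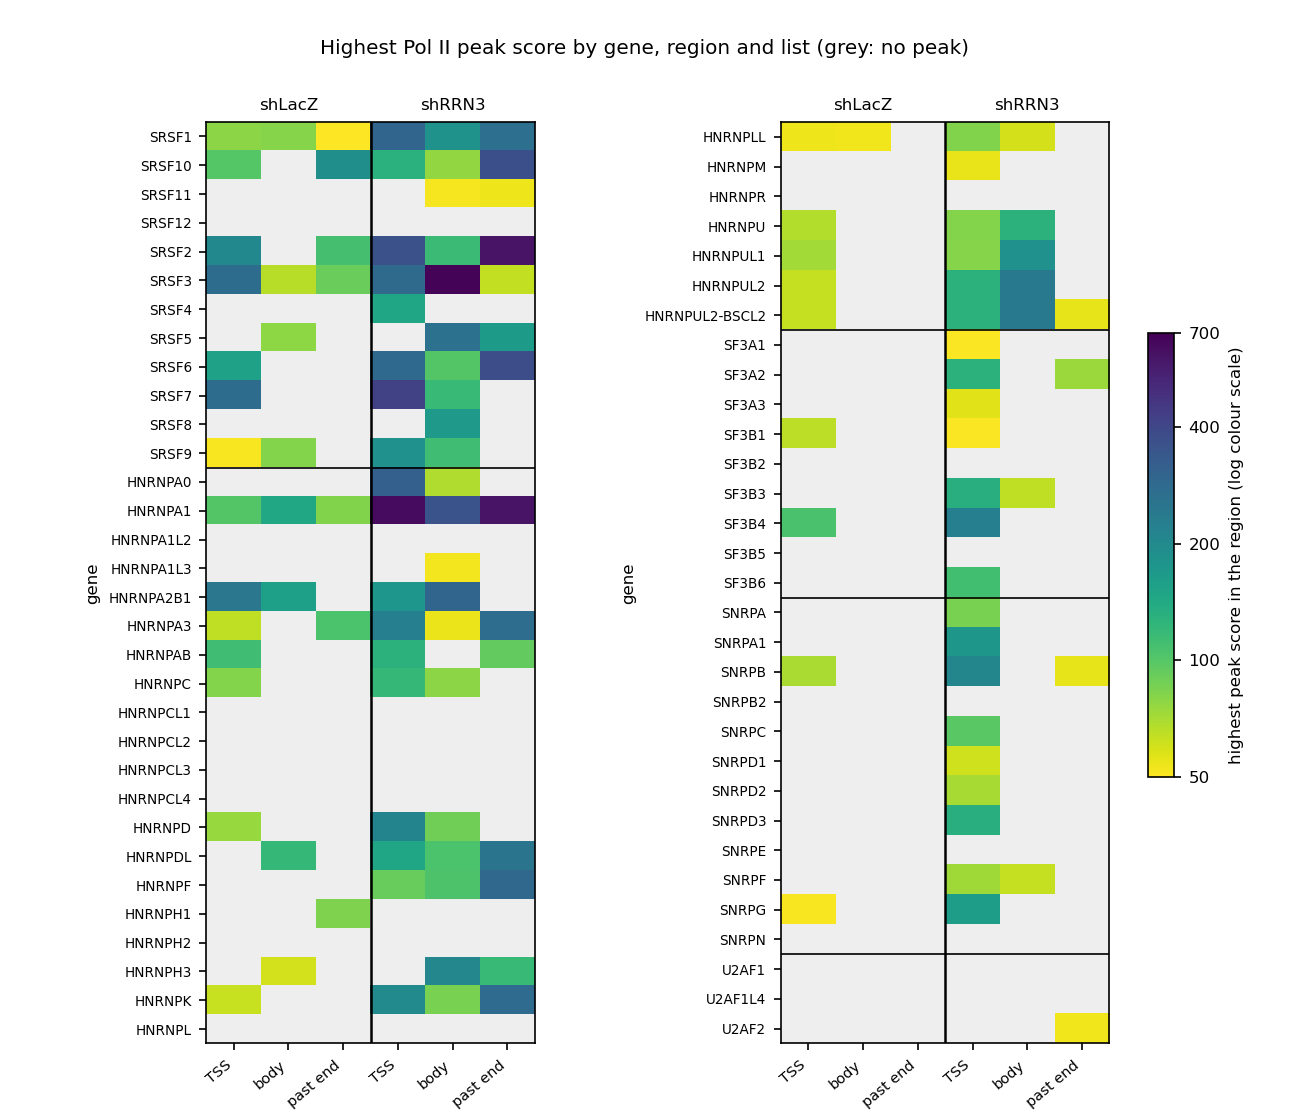
Highest peak score (log colour scale, no unit) of each of the 63 genes at the TSS, in the body and up to 2 kb past the end, with shLacZ on the left and shRRN3 on the right of each panel. Grey cells hold no peak, and black horizontal lines part the groups by role. In shLacZ the coloured cells lie mostly among SR proteins and hnRNPs, while in shRRN3 the TSS column also fills for SF3 and SNRP genes.

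Among SR proteins, 7 of 12 had a TSS peak in shLacZ and 8 in shRRN3. SRSF3, the smallest canonical SR protein, had the highest shLacZ score of the whole list, 276.61 at chr6:36594294-36594770 (GRCh38), and 282.44 in shRRN3. SRSF7, an SR protein with a zinc knuckle, had 275.45 in shLacZ and 421.41 in shRRN3, at a start 40 bp from that of GEMIN6 on the other strand. SRSF2, which also acts in release of paused Pol II, had 204.98 and 362.68. These 3 starts were already among the top peaks of the shLacZ list, at percentiles 96.4, 96.4 and 94.3 of its scores. SRSF1, the founding member of the family, had 79.25 in shLacZ (percentile 65.9) and 296.95 in shRRN3 (percentile 97.5). SRSF6 had 153.87 in shLacZ and 282.83 in shRRN3, and SRSF10, known for repressing splicing when dephosphorylated, had 99.9 and 129.84. SRSF4 had a TSS peak in shRRN3 alone.

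The annotated start mattered for 2 SR protein genes. The TSS peaks of SRSF9 (51.28 in shLacZ, 184.93 in shRRN3) lay at the outermost annotated start, 26198 bp before that of its canonical transcript and close to the start of the noncoding RNA NRAV. At the canonical start SRSF9 had peaks of 81.68 and 54.45, within 1 kb of the start of DYNLL1. SRSF5 had no peak at its outermost start, but at its canonical start, 40242 bp further in, it had peaks of 78.46 in shLacZ and 261.62 in shRRN3. With starts of canonical transcripts, 24 of the 63 genes had a TSS peak in shLacZ (8.18% of all genes) and 42 in shRRN3 (25.4% of all genes).

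Among hnRNPs, 12 of 27 had a TSS peak in shLacZ and 16 in shRRN3. HNRNPA2B1, a reader of sorting and methylation signals in RNA, had the highest shLacZ score of the group, 246.87 at chr7:26200430-26200822, and a lower one in shRRN3, 174.86. HNRNPAB had 112.26 and 128.61. HNRNPA1, the best-studied antagonist of SR proteins, had 101.24 in shLacZ and 649.98 in shRRN3, the highest TSS score of the list in either library. Its start lies 60 bp from that of CBX5 on the other strand, and the start of HNRNPA2B1 lies 367 bp from that of CBX3. A peak there may hold Pol II of either gene of the pair, which was not tested. HNRNPA3, a close relative of HNRNPA1, had 64.58 and 223.28. HNRNPA0, an intronless gene of the same subfamily, had no peak in shLacZ and 311.93 in shRRN3. HNRNPDL, HNRNPF and HNRNPM also had a TSS peak in shRRN3 alone.

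The SF3 and Sm genes filled in mainly in the shRRN3 list. SF3B4, a subunit that contacts the pre-mRNA near the branch site, had a TSS peak of 106.95 in shLacZ and 223.62 in shRRN3. SF3B1, the branch-site subunit often mutated in blood cancers, had 65.24 and 50.64. SF3B3 (134.01) and SF3A2 (128.61) had one in shRRN3 alone, as did SF3A1, SF3A3 and SF3B6. SNRPB, which codes for the SmB proteins, had 69.69 in shLacZ and 208.85 in shRRN3. SNRPG, the SmG gene, had 51.37 and 161.19. SNRPA1, a protein of the U2 particle, had 173.98 in shRRN3 and no peak in shLacZ. SNRPA, SNRPC, SNRPD1, SNRPD2, SNRPD3 and SNRPF likewise had a TSS peak in shRRN3 alone. No U2AF gene had a TSS peak in either list.

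Where a TSS peak was present in both lists, its score was higher in shRRN3 for 21 of 23 genes, the exceptions being HNRNPA2B1 and SF3B1. Over all 1284 genes with peaks in both lists, 83.3% scored higher in shRRN3. By percentile within its own list, the peak ranked higher in shRRN3 for 19 of 23 genes (82.6%), against 76.7% of all genes. A longer list that adds low-scoring peaks raises the percentile of a high-scoring one, so percentiles of the lists were not read as a change. For the genes with a peak in both lists, the median difference in percentile, shRRN3 minus shLacZ, was 13.0 for the 23 genes (interval 3.81 to 39.3) and 15.6 for all genes. In shLacZ the median percentile was 62.0 for the 23 genes (interval 46.8 to 82.1), which includes the 57.1 of all genes with a TSS peak. In shRRN3 it was 83.4 for the 40 genes (interval 76.6 to 91.2), above the 65.0 of all genes with one.

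**Figure D2:**
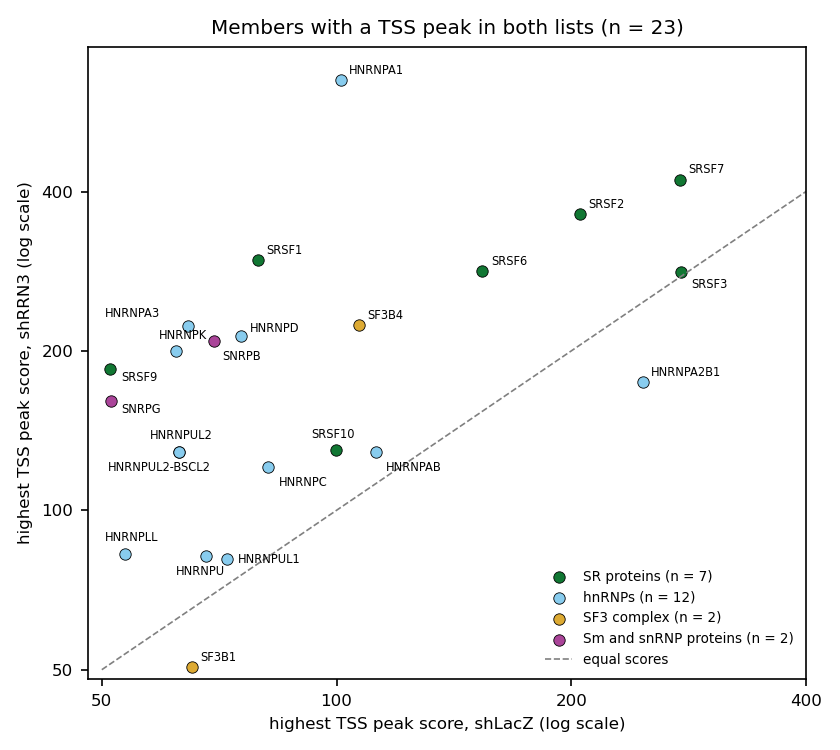
Highest TSS peak score in shLacZ (x axis) and shRRN3 (y axis), both on log scales, for the 23 genes with a TSS peak in both lists, coloured by group. The dashed line marks equal scores, and 21 of the 23 points lie above it, with HNRNPA1 farthest up and HNRNPA2B1 and SF3B1 below.

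TSS peaks of the splicing genes were also wide in shRRN3. The median width was 499 bp in shLacZ (489 bp over all genes) and 870 bp in shRRN3 (650 bp over all genes). For genes with a peak in both lists the median ratio of widths, shRRN3 over shLacZ, was 1.75 (interval 1.21 to 2.61, n = 23), beside 1.42 over all 1284 genes and 1.68 for the 13 other machinery genes, so the interval for the splicing genes includes the value for all genes. The widest TSS peak in shLacZ was at HNRNPUL2, a scaffold-attachment-factor-like hnRNP, with 1602 bp, and it was 2180 bp in shRRN3. That peak was centred upstream of the gene, at −916 bp from the start in shLacZ and −611 bp in shRRN3, within 1 kb of the start of TTC9C. HNRNPUL2-BSCL2, an annotated readthrough model, shares this peak, and without it the counts of TSS peaks were 22 in shLacZ and 39 in shRRN3. SRSF1 had 966 bp in shLacZ and 1692 bp in shRRN3, HNRNPK, a KH-domain protein, 844 bp and 984 bp, and HNRNPU, which binds chromatin-associated RNA, 734 bp and 539 bp. The widest TSS peak in shRRN3 was at HNRNPA1, 2439 bp wide, over a stretch where shLacZ had separate TSS peaks of 818 bp and 253 bp, and the peak at the outer start of SRSF9 was 2128 bp wide.

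In the body of the gene, peaks were frequent in SR protein and hnRNP genes and few in the SF3, Sm and U2AF genes. A body peak had its midpoint inside the span and more than 1 kb from the TSS. In shLacZ 9 of 63 genes had one (14.3%, interval 6.75% to 25.4%), against 5.76% of all genes, and in shRRN3 28 had one (44.4%, interval 31.9% to 57.5%), against 18.1%. All 9 were SR proteins (4) or hnRNPs (5). In shRRN3 10 of 12 SR protein genes, 16 of 27 hnRNP genes, 1 of 9 SF3 genes (SF3B3), 1 of 12 SNRP genes (SNRPF) and no U2AF gene had one. For the 39 SR protein and hnRNP genes the shares were 23.1% in shLacZ (interval 11.1% to 39.3%) and 66.7% in shRRN3 (interval 49.8% to 80.9%). For the 24 SF3, Sm and U2AF genes they were 0.0% (interval up to 14.2%) and 8.33% (interval 1.03% to 27.0%). Both of the latter intervals include the share over all genes. Of the 75 other machinery genes, 4 had a body peak in shLacZ and 22 in shRRN3. The median share of a gene's span covered by peaks was 0.0% in shLacZ and 2.70% in shRRN3 for the 63 genes, and 0.0% in both for all genes.

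Part of the body peaks sat at inner starts and part at the 3′ part of the gene. Of 21 body peaks in shLacZ, 9 lay within 1 kb of another annotated start of the same gene, and 6 overlapped the last exon of the canonical transcript. Of 79 in shRRN3, without the readthrough model, the counts were 33 and 23. A peak can be in both counts, as were all HNRNPA1 body peaks over its last exon. Of the 21 shLacZ body peaks, 18 were overlapped by a shRRN3 peak. With bounds of canonical transcripts, 4 genes had a body peak in shLacZ (SRSF1, SRSF3, HNRNPA1 and HNRNPDL), against 3.98% of all genes, and 23 in shRRN3, against 13.7%. The genes that dropped out in shLacZ were HNRNPA2B1, HNRNPH3, HNRNPLL, SRSF5 and SRSF9.

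Each of these 4 genes had a body peak over its last exon in both lists. SRSF3 had 66.05 in shLacZ and 682.57 in shRRN3, the latter a peak 3094 bp wide at chr6:36602819-36605912. It was the highest score of any body peak of the list and lay over the last exon and the end of the gene. SRSF1 had 80.41 in shLacZ and 179.96 in shRRN3, HNRNPA1 144.31 and 356.19, and each of these peaks overlapped the last exon. HNRNPDL, a relative of HNRNPD, had 61.55 and 105.66 on the last exon, and in shLacZ a higher body peak of 120.85 nearer the start, at 1114 bp.

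The other genes named for body peaks had them at varied places. HNRNPH3 had 59.91 and 206.81, both within 1 kb of the start of PBLD. HNRNPLL, an hnRNP known from T-cell splicing of CD45, had 52.66 at 1591 bp and 59.34 at 21831 bp from the start. Of those with a body peak in shRRN3 alone, the highest scores were at HNRNPUL2 (239.73, a peak 2936 bp wide), HNRNPUL1 (184.74), SRSF8 (169.31), an intronless SRSF2 relative, and HNRNPU (127.77). The peak of HNRNPUL1 was centred upstream of its canonical start, at −578 bp.

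Past the end of the gene, Pol II peaks were again concentrated in SR protein and hnRNP genes. A peak counted here when its midpoint was up to 2 kb past the last base of the span. In shLacZ 7 of 63 genes had one (11.1%, interval 4.59% to 21.6%), against 1.26% of all genes, and in shRRN3 18 had one (28.6%, interval 17.9% to 41.3%), against 4.43%. The number of genes was 2.57 times as high in shRRN3, and 3.51 times as high over all genes. In both lists 6 genes had one, against 0.973% of all genes, and 12 had one in shRRN3 alone (19.0%), against 3.45%. By group, the counts in shLacZ and shRRN3 were 4 and 7 of 12 SR proteins, 3 and 8 of 27 hnRNPs, 0 and 3 of the 24 SF3, Sm and U2AF genes, and 0 and 6 of the 75 other machinery genes. A few of these peaks lay near the start of another coding gene, and without such peaks 6 genes were left in shLacZ (0.669% of all genes) and 14 in shRRN3 (2.79% of all genes). Peaks inside the span of another coding gene were not removed by this. Such peaks were those of HNRNPA3 in both lists and of HNRNPAB and HNRNPH3 in shRRN3. The lower-scoring SRSF10 peak past the end in shRRN3 (167.17, centred 982 bp past it) was another.

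The 6 genes with a peak past the end in both lists were SRSF1, SRSF2, SRSF3, SRSF10, HNRNPA1 and HNRNPA3. HNRNPA1 had 82.1 in shLacZ at chr12:54288339-54288615, and in shRRN3 611.53 over 2065 bp at chr12:54287169-54289233, just past its end. SRSF2 had 108.51 and 610.03, near the start of a coding model without a gene symbol. Both shRRN3 peaks were at percentile 99.4 of their list. SRSF10 had 187.87 in shLacZ, higher than its TSS peak, and 367.03 in shRRN3, also higher than at the start. These SRSF10 peaks straddled the annotated end, with midpoints 10 bp and 150 bp past it. HNRNPA3 had 106.09 and 272.44, both above its TSS scores. The peaks past the end of SRSF2 and HNRNPA3 lay in the span of another named coding gene. By position they cannot be given to SRSF2 or HNRNPA3. SRSF1 had 50.05 and 267.49, and SRSF3 had 90.93 and 63.91. These SRSF3 peaks did not overlap each other. The shLacZ peak of SRSF3, centred 1998 bp past the end, was overlapped by another shRRN3 peak, with a score of 124.29. That peak was centred 2122 bp past the end, just outside the window counted here.

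HNRNPH1, the hnRNP that binds runs of G, was the 1 gene with a peak past its end in shLacZ alone (83.66, 140 bp wide, 1189 bp past the end), and it had no other peak in either list. In shRRN3 alone the highest scores past the end were at SRSF6 (374.22), HNRNPF (288.33), HNRNPK (279.43), HNRNPDL (252.49) and SRSF5 (166.94). HNRNPK had a shLacZ peak of 59.34 slightly further out, 2731 bp past its end, which the shRRN3 peak overlapped. The 3 SF3, Sm and U2AF genes were SF3A2, SNRPB and U2AF2, and the peaks of SF3A2 and U2AF2 were near the starts of AMH and EPN1.

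Among genes with peaks both at the start and past the end, the score past the end was the higher one for 2 of 6 genes in shLacZ and for 7 of 14 in shRRN3. Over all genes the shares were 28.4% of 67 in shLacZ and 40.8% of 453 in shRRN3. The counts include SRSF2 and HNRNPA3, whose peaks past the end lay in the span of another coding gene. The median percentile of peaks past the end in shRRN3 was 93.2 for the 18 genes (interval 35.0 to 97.3), an interval that includes the 61.5 of all genes with one. Their scores were spread widely, from 52.86 at U2AF2 to 611.53 at HNRNPA1.

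**Figure D3:**
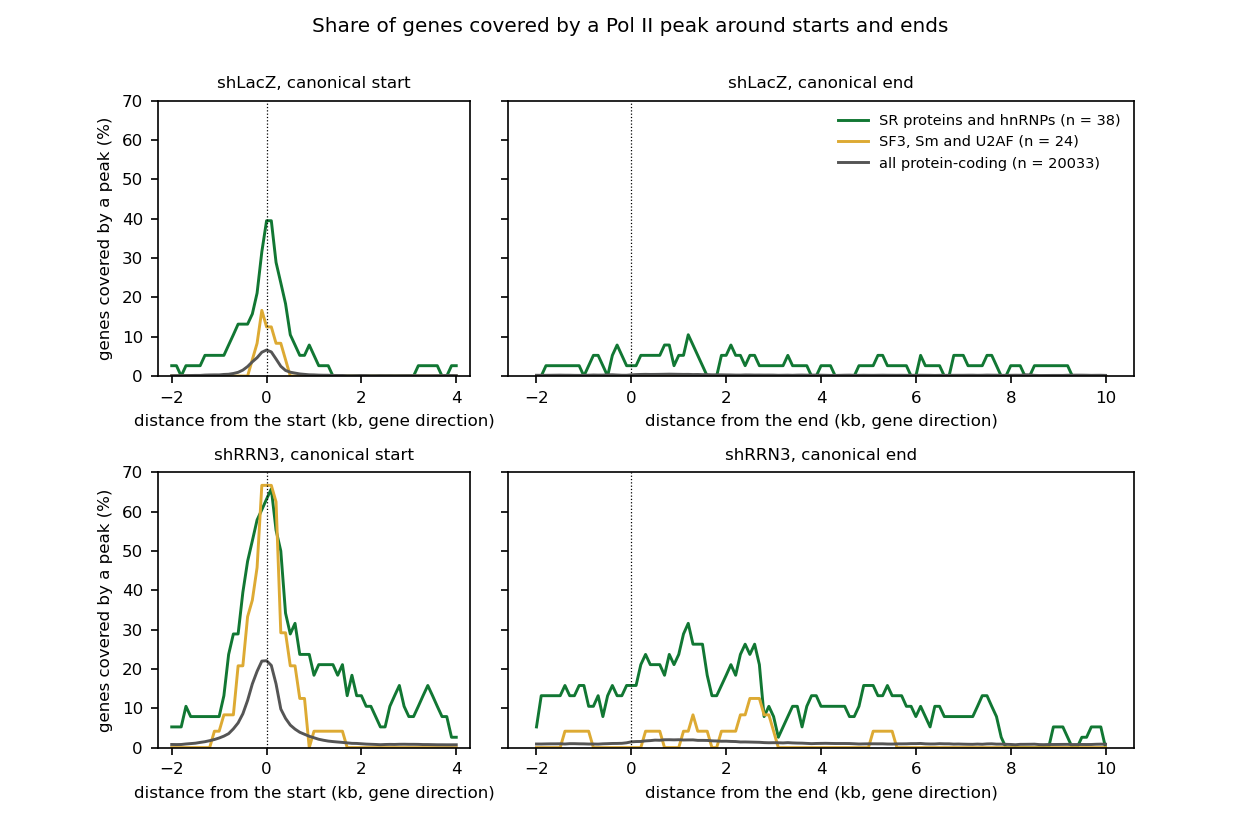
Share of genes (%) covered by a peak at each distance (kb, in the direction of the gene) from the canonical start (left) and canonical end (right), in shLacZ (top) and shRRN3 (bottom), in steps of 100 bp. Lines stand for 38 SR protein and hnRNP genes, 24 SF3, Sm and U2AF genes, and all protein-coding genes. At the start both groups exceed all genes in shRRN3, with highest shares of 65.8% and 66.7%, while past the end the SR protein and hnRNP line stays raised and reaches 31.6%. Peaks inside or near other genes are included.

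The cover of peaks past the canonical end reached further than 2 kb. In this profile HNRNPUL2-BSCL2 was left out of the SR protein and hnRNP genes. Peaks inside or near other genes were kept for every group, among them peaks past HNRNPA2B1 that lie in NFE2L3. The cover can therefore include Pol II of other genes, and with 38 SR protein and hnRNP genes the far averages rest on few of them. In the first 2 kb past the end, peaks covered on average 4.73% of SR protein and hnRNP genes in shLacZ and 21.5% in shRRN3. For SF3, Sm and U2AF genes the averages were 0.0% and 2.71%, and for all genes 0.390% and 1.82%. From 2 to 4 kb past the end SR protein and hnRNP genes still had 3.29% and 13.8%, and from 4 to 10 kb 2.06% and 7.24%, where all genes had 0.194% and 0.900%. The profile at the start was unlike this, since the SF3, Sm and U2AF genes peaked at 66.7% in shRRN3, beside 65.8% for SR proteins and hnRNPs and 22.1% for all genes.

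Several genes carried a row of separate peaks downstream. Counting peaks up to 10 kb past the canonical end and outside other named coding genes, 8 of 62 genes had at least 1 in shLacZ (12.9%, against 1.23% of all genes) and 16 in shRRN3 (25.8%, against 4.47%). At least 3 such peaks were found for 3 genes in shLacZ (4.84%, against 0.0998%), namely SRSF1, SRSF3 and HNRNPA2B1. In shRRN3 5 genes had at least 3 (8.06%, against 0.334%), namely those and HNRNPD and SNRPB. This wider window was chosen after the data were seen.

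SRSF3 had 4 peaks downstream in shLacZ, with scores from 66.27 to 91.67 and the farthest edge 4273 bp past the end. In shRRN3 it had 5, reaching 7874 bp, with the highest score of 529.05 at chr6:36608452-36610282. That peak overlapped 3 of the shLacZ peaks. SRSF1 had 5 in shLacZ, reaching 8215 bp with a highest score of 95.12, and 6 in shRRN3, reaching 7591 bp with a highest score of 267.49. In both genes peaks past the end were thus present in the control cells as well. A peak of 2737 bp in shRRN3 covered the ground where SRSF1 had 3 of its distal peaks in shLacZ.

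HNRNPA2B1 differed from the others in that all of its downstream peaks were counted as body peaks, because a longer annotated span runs past the canonical end. Its 7 body peaks in shLacZ lay from 454 bp to 7554 bp past the canonical end, the highest with 157.15 at 2275 bp. In shRRN3 10 of its 11 body peaks lay from 1073 bp to 9769 bp past it, the highest with 295.48 at 6758 bp. The peaks more than 3 kb past the end also lay in the span of NFE2L3 on the other strand, so they cannot be given to HNRNPA2B1 by position. Of the downstream peaks outside NFE2L3, the highest scored 157.15 in shLacZ and 220.14 in shRRN3.

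**Figure D4:**
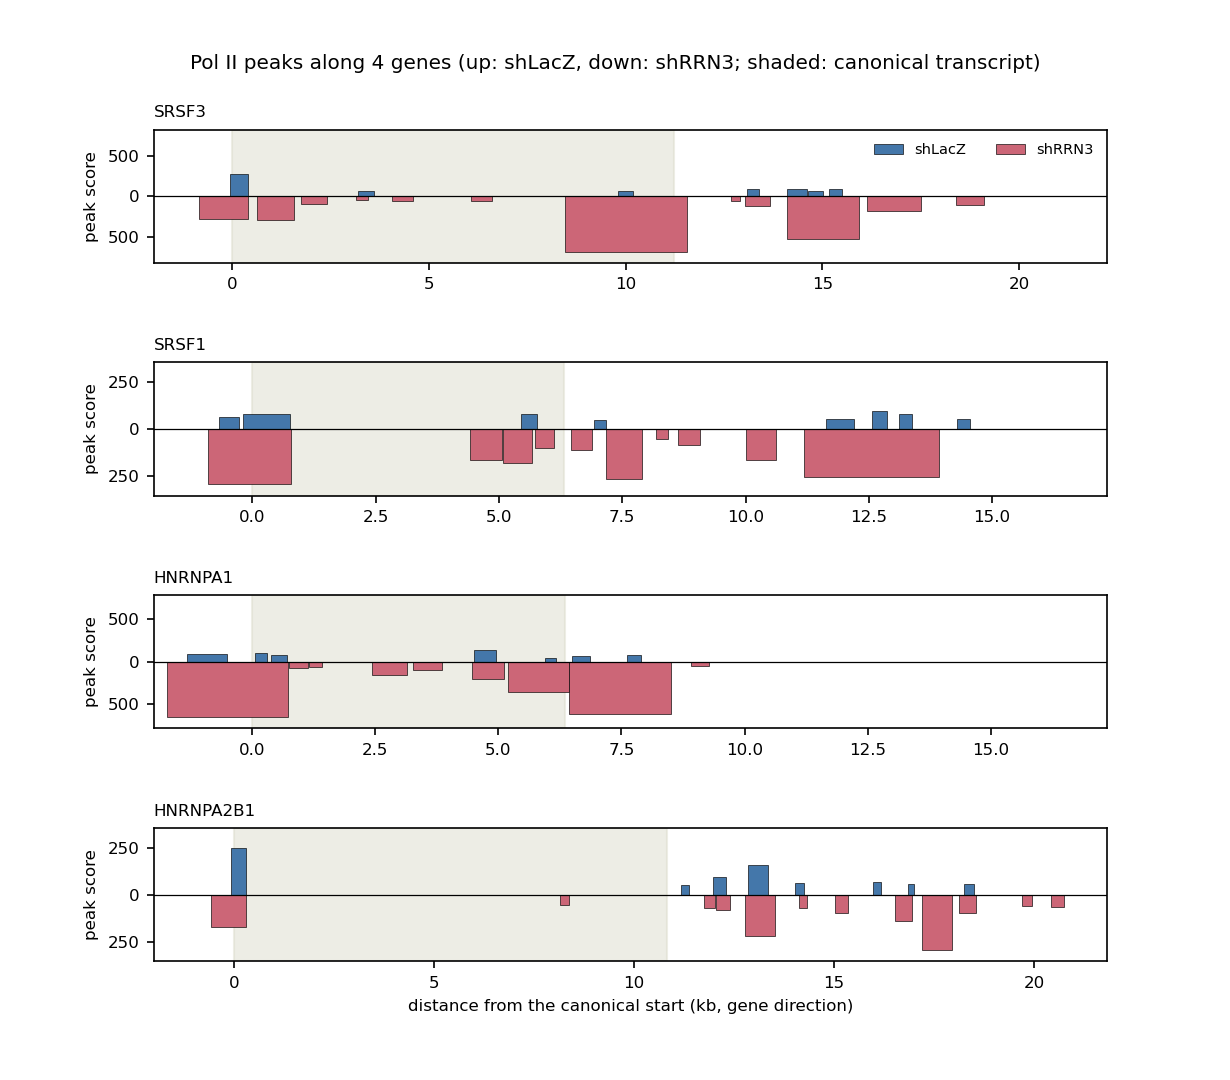
Peaks along SRSF3, SRSF1, HNRNPA1 and HNRNPA2B1, drawn to their width against the distance from the canonical start (kb, in the direction of the gene), with score upward for shLacZ and downward for shRRN3. The shaded stretch is the canonical transcript. In SRSF3 and SRSF1 separate peaks of both lists continue beyond the shading, to 7874 bp and 8215 bp past the end.

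The shorter shLacZ list limits each of these comparisons, so the shRRN3 list was also reduced to its 3920 highest-scoring peaks, the number that shLacZ had on chromosomes 1 to 22, X and Y. In this reduced list 27 of the 63 genes had a TSS peak, against 9.74% of all genes, and 11 had a peak past the end, against 1.76%. The genes with a TSS peak in shLacZ alone were then 4, against 3.32% of all genes, and those in shRRN3 alone 8, against 5.5%. The gap between lists at the start was thus 23 to 27 genes for lists of equal length.

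Of the 63 genes, 16 had no peak in any of the 3 regions in either list (25.4%, interval 15.3% to 37.9%), against 62.5% of all genes. They were SRSF12, HNRNPA1L2, HNRNPCL1, HNRNPCL2, HNRNPCL3, HNRNPCL4, HNRNPH2, HNRNPL, HNRNPR, SF3B2, SF3B5, SNRPB2, SNRPE, SNRPN, U2AF1 and U2AF1L4. HNRNPA1L2 and the HNRNPCL genes are near-identical copies of HNRNPA1 and HNRNPC, where short reads may map to more than 1 place, and the handling of such reads is not given in the sources used here. HNRNPA1L3 had 1 body peak in shRRN3 (52.31), far inside an intron of its model. SRSF11 had peaks in shRRN3 alone, in the body and past the end.

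Nearby coding starts were more frequent in the list than over all genes. For 19 of the 63 genes (30.2%) another coding gene started within 1 kb of the TSS, against 17.4% of all genes. Besides the pairs with CBX5, CBX3 and GEMIN6, they included HNRNPK with RMI1 (167 bp), HNRNPDL with ENOPH1 (128 bp) and SNRPD3 with GUCD1 (23 bp). Not all were separate genes on opposite strands. HNRNPUL2 and its readthrough model HNRNPUL2-BSCL2 counted each other (73 bp, same strand). SRSF1 (100 bp), SRSF6 (161 bp) and U2AF1L4 (13 bp) were each next to a same-strand coding model without a gene symbol. Of the genes with a TSS peak, 8 of 23 in shLacZ and 16 of 40 in shRRN3 had such a neighbour, and the part of the neighbour in these peaks was not tested. SRSF1, SRSF6, HNRNPUL2 and HNRNPUL2-BSCL2 were among them in both lists.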

How the data were processed

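Pol II ChIP-seq was done by the study in shLacZ and shRRN3 SK-OV-3 cells with the ChIP-IT Express Kit and sequenced on a BGISEQ instrument. The authors deposited 1 list of peaks per Pol II library with positions and a score. The deposited score was taken as a log10 p-value scale of MACS, on which a higher score is a smaller p, since the lowest values were 50.03 and 50.0 and both lists stopped at 3100, and it was used only to rank or filter peaks. The build was hg38 per the submitters' processing notes. The aligner, the MACS version, the threshold and the use of input are not given in the sources used here. Depth is unknown from the lists.

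Genes came from GENCODE release 44. A peak was placed by its midpoint at a TSS (1 kb), in the body or up to 2 kb past the end, and placing was tested on simulated peaks. Members and lists were chosen with earlier results of these data known. Genes named with values were the 3 highest TSS scores per group and list, every body or past-end peak in both lists or in shLacZ alone, the 5 highest of those in shRRN3 alone, and the 5 widest TSS peaks per list; HNRNPA1L3 and U2AF2, outside this rule, were chosen after their values were seen. Each hairpin had 1 library, so no p-value was computed. Alternatives are given in the closing section. Tools were Python 3.11.15, pandas 2.3.3, numpy 2.4.6, matplotlib 3.10.9 and scipy 1.17.1.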

Additional observations from a re-analysis of the deposited data

How the results depend on the processing

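No paired analysis was possible because the hairpins had 1 library apiece, and no replicate could be left out. Of 90 recomputed values for 13 results, 77 stayed within 1.5 times the main count or, for medians, within the interval of the main value, 13 moved and 0 reversed. With peaks of a score of at least 66.05, 15 genes had a TSS peak in shLacZ (4.38% of all genes), 15 had one in both lists (3.65%), and 6 of the other machinery genes had one in shLacZ (4.38%). With the shRRN3 list reduced to 3920 peaks (lowest score 102.86), 4 genes had a TSS peak in shLacZ alone (3.32% of all genes) and 8 in shRRN3 alone (5.5%), 16 had a body peak in shRRN3 (6.0%), 11 had a peak past the end in shRRN3 (1.76%), 21 other machinery genes had a TSS peak in shRRN3 (9.74%), and the median difference in span covered was 0.0 percentage points. A TSS window of 0.5 kb gave 1 gene with a TSS peak in shLacZ alone (1.26% of all genes). Bounds of canonical transcripts gave 4 genes with a body peak in shLacZ (3.98% of all genes). A window of 1 kb past the end gave 4 genes in shLacZ (0.729% of all genes) and 10 in shRRN3 (2.38%). Fewer peaks or a narrower window can only lower a count of genes in a list, and the cause of the other changes was not tested. Leaving out HNRNPUL2-BSCL2, chosen after seeing the data, moved none of these results past 1.5 times. The lists hold no read counts, so a missing peak does not show that Pol II was absent.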
